A study of Homo sapiens with 11 samples.

Results

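The genes described here are 10 named regulators and markers of the epithelial-mesenchymal transition (EMT): the transcription factors ZEB1, ZEB2, SNAI1, SNAI2, TWIST1, TWIST2 and PRRX1, the epithelial splicing regulators ESRP1 and ESRP2, and the intermediate filament gene VIM. They were taken by gene symbol, and all 10 were among the 23434 rows of the authors' deposited table. The libraries were RNA-seq of liver tumours grown from PANC1 LM3, a liver-metastatic derivative, of generation 3, of the human pancreatic ductal carcinoma line PANC1. The tumour cells expressed shNPTX1_3 (3 libraries) or shNPTX1_4 (4 libraries), which are short hairpin RNAs directed at NPTX1, or the control hairpin shCTRL (4 libraries). All groups shared the same procedure, with 500000 cells placed in the spleen on day 1 and tumours collected on day 21. The labels call the libraries biological replicates but do not tie them to animals, so p-values measure the spread between libraries only, part of which may be technical. Hairpin vector and promoter, number of cell clones and host strain are not stated in the sources used.

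In EMT, epithelial cells lose junctions and polarity and take on migratory, mesenchymal features. The ZEB and SNAI zinc finger proteins repress epithelial genes such as CDH1 through E-box sequences, and the TWIST bHLH proteins and the homeodomain protein PRRX1 promote mesenchymal programmes. ESRP1 and ESRP2 are RNA-binding proteins that maintain the epithelial splice forms of genes such as FGFR2, CD44 and CTNND1, and are themselves known to be repressed during EMT. Pancreatic carcinoma lines differ widely along this axis, and PANC1 is known as a line with quasi-mesenchymal features.

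The values are the authors' group means in normalized counts (counts divided by a size factor for each library), and a change is the DESeq2 log2 fold change of the 7 knockdown libraries over the 4 control libraries with its standard error (SE). The threshold for a call was 0.05 on the adjusted p. NPTX1, the targeted gene, had means of 46.5 normalized counts in shNPTX1_3 and 38.4 in shNPTX1_4, against 103 in shCTRL, by the authors' deposited table (log2 fold change -1.26, SE 0.24). The libraries held an estimated 10800000 to 24000000 reads on genes in shNPTX1_3, 16600000 to 26100000 in shNPTX1_4 and 13000000 to 41200000 in shCTRL. Of 12 pancreatic ductal carcinoma markers, 7 had a mean of at least 2 CPM (here 38.6 normalized counts), KRT8, KRT18 and KRT19 among them. The hepatocyte marker ALB averaged 0.616, 0.284 and 0.784 normalized counts in the same order of groups by the authors' deposited table. The hepatocyte marker APOA1 averaged 49.3, 21.9 and 9.99 there (log2 fold change 1.77, DESeq2 adjusted p = 0.00820). Of 8 tested hepatocyte markers, 2 rose and 0 fell, or 25% in all against 27.3% of all tested named genes. Of the 12 listed hepatocyte markers, 11 lie under 2 CPM, where 10.3% of tested genes were called in either direction. RNA of bulk tumours cannot tell fewer cells of a type from less RNA per cell.

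**Figure D1:**
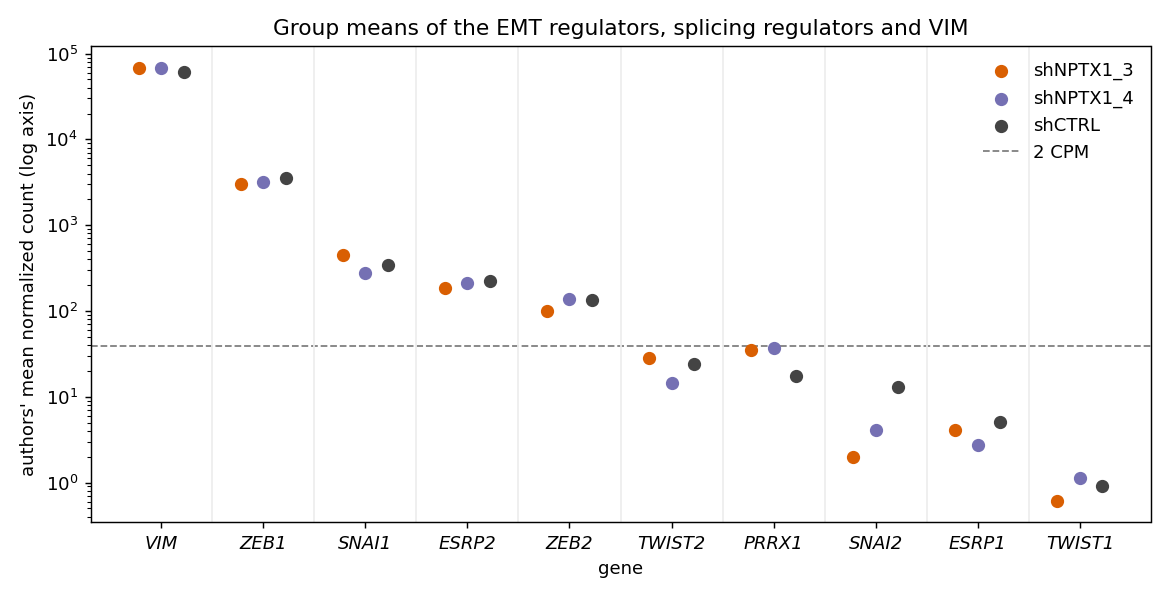
Authors' mean normalized count (vertical axis, log scale) of each of the 10 genes in shNPTX1_3, shNPTX1_4 and shCTRL tumours, 1 point per group mean, with the level of 2 CPM dashed. VIM lies highest and TWIST1 lowest in each of the groups, and SNAI2 shows the widest distance between its group means.

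The 10 genes covered a wide range of levels, with VIM, ZEB1, SNAI1 and ESRP2 leading in each group. Per kilobase of the longest coding transcript, VIM stood first, with 32165 normalized counts per kb in shNPTX1_3, 31993 in shNPTX1_4 and 28392 in shCTRL. ZEB1 came second with 487, 505 and 572 per kb, SNAI1 next with 265, 163 and 204, and then ESRP2 with 48.2, 55.3 and 59.2, in the same order of groups. Below them, TWIST2 had 20.2, 10.4 and 17.2 normalized counts per kb and ZEB2 had 10.5, 14.3 and 14.0, so these neighbours changed places between the groups. PRRX1, SNAI2, ESRP1 and TWIST1 lay under 9 per kb in each group, with PRRX1 at 8.21, 8.56 and 4.07 per kb and TWIST1 last at 0.370, 0.674 and 0.547. The order of TWIST2 and ZEB2 also depends on the transcript length used. Per kilobase of the median coding transcript, shCTRL had ZEB2 at 50.8 and TWIST2 at 18.8. The spread over libraries was not available for most of these genes, so the order of close neighbours was not tested.

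Within the ZEB, ESRP and SNAI pairs of paralogs, 1 member held nearly all of the signal. ZEB1 exceeded ZEB2 46.2-fold per kb in shNPTX1_3, 35.4-fold in shNPTX1_4 and 40.7-fold in shCTRL. ESRP2 exceeded ESRP1 44.2-fold, 77.0-fold and 44.1-fold in the same order of groups. SNAI1 exceeded SNAI2 323-fold in shNPTX1_3 and 97.6-fold in shNPTX1_4, against 38.2-fold in shCTRL. The size of these ratios depends on the transcript length used, here the longest. Per kilobase of the median coding transcript, shCTRL had ZEB1 at 1114 and ZEB2 at 50.8, and ESRP2 at 113 and ESRP1 at 1.42. The SNAI ratios rest on a low SNAI2, whose reads are given with its libraries.

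Of the 9 tested genes, 3 were called by DESeq2 (the authors' deposited table), against 27.3% of 18426 named genes. PRRX1 rose, where 15.8% of named genes were called higher in the knockdown tumours, and SNAI2 and ZEB1 fell, where 11.5% were called lower. With equal group totals the balance of the whole table turned, with 11.6% called higher and 16.4% called lower, while the calls of these 3 genes kept their directions. The share called was 33.3% of the 9 genes, near that of the whole table. Among the 4299 tested genes under 2 CPM, where PRRX1 and SNAI2 lie, 10.3% were called in either direction. The median log2 fold change of the 9 genes was -0.16 by the authors' deposited table, against -0.01 for all tested named genes. TWIST1, with a mean over all libraries of 0.907 normalized counts, had no adjusted p by the authors' deposited table.

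**Figure D2:**
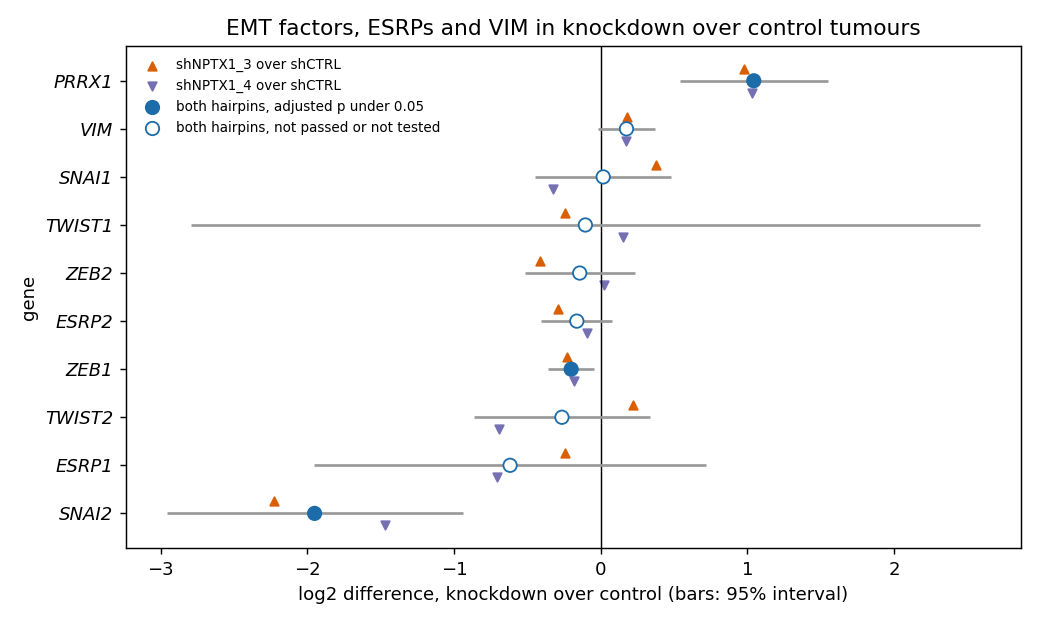
DESeq2 log2 fold change of both hairpins over control from the authors' deposited table (circles, filled where the adjusted p is under 0.05) with a 95% interval, and the log2 ratio of each hairpin's mean to the control mean (triangles), for each of the 10 genes. PRRX1 lies at 1.04, ZEB1 at -0.20 and SNAI2 at -1.95, while the triangles of SNAI1, TWIST1, TWIST2 and ZEB2 lie on opposite sides of 0.

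Among the ZEB factors, ZEB1 fell slightly in the test of both hairpins together, and ZEB2 did not pass. ZEB1, the more abundant of the pair, had authors' means of 3051 normalized counts in shNPTX1_3 and 3162 in shNPTX1_4, against 3583 in shCTRL, by the authors' deposited table. The authors' deposited table gave it a log2 fold change of -0.20 with an SE of 0.08 (DESeq2 adjusted p = 0.0424), or 0.869-fold. The change was small, and the call sat at the edge of the threshold: with Benjamini-Hochberg adjustment over every named row with a p, the DESeq2 adjusted p was 0.0501, and with equal group totals the log2 fold change was -0.27 (adjusted p = 0.00512). ZEB2, its paralog, averaged 101 and 137 normalized counts in shNPTX1_3 and shNPTX1_4, against 135 in shCTRL, by the authors' deposited table. The authors' deposited table gave it a log2 fold change of -0.14 with an SE of 0.19 (DESeq2 adjusted p = 0.615), with a 95% interval of -0.52 to 0.23. The log2 ratio to control was -0.41 with shNPTX1_3 and 0.02 with shNPTX1_4, so the mean of ZEB2 was low in shNPTX1_3 and level with control in shNPTX1_4. The antisense gene ZEB1-AS1, which overlaps ZEB1 on the other strand, did not pass the test either, with a log2 fold change of 0.02 by the authors' deposited table (DESeq2 adjusted p = 0.942). ZEB2-AS1 averaged 0.764 normalized counts over all libraries by the authors' deposited table. Whether the authors counted by strand is not stated in the sources used, so reads in these overlaps are uncertain.

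The sequence around 1 of the 7 ZEB1 start sites listed by RefSeq is shown because ZEB1 carried a call and this window held the most copies of CACCTG, the core of the E-box bound by ZEB and SNAI proteins. It spans 250 bases before to 50 bases after the start at chr10:31318966-31319265 on the plus strand (GRCh38.p14), with CACCTG on either strand in capitals. A window of the same length is shown for PRRX1, the member that rose, at chr1:170663881-170664180 on the plus strand (GRCh38.p14), which held no copy and so has no capitals.
ZEB1: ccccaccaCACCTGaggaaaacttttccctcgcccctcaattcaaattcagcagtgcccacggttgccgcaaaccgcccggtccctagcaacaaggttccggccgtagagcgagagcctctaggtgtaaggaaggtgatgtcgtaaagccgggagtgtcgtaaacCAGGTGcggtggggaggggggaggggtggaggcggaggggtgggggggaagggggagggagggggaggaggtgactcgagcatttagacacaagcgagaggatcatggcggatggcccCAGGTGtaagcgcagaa
PRRX1: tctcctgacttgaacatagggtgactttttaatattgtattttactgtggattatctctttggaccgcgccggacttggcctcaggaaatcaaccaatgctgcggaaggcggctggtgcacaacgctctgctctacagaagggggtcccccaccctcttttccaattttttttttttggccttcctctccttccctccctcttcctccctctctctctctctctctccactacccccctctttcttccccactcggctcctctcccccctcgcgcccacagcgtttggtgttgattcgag
The ZEB1 window held CACCTG 3 times over both strands, 1 other ZEB1 window held it 1 time and the remaining 5 did not hold it. Of 35116 RefSeq promoter windows of 300 bases, 20.6% held at least 1 copy on either strand and 0.635% held 3 or more. Those are shares of single windows, while the ZEB1 window was chosen as the highest of 7, so they do not measure how rare it is. The windows of TWIST2, VIM and ZEB2 held no copy, and the broader E-box form CANNTG, which includes CACCTG, occurred 1 time in the ZEB2 window, 0 times in those of PRRX1, TWIST2 and VIM, and in 68.7% of all windows. A matching string is a description of the letters in the window and not evidence of binding. Windows of SNAI1, SNAI2, TWIST1, ESRP1 and ESRP2 were not used here.

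Among the SNAI factors, SNAI2 fell about 4-fold, while SNAI1, which was far more abundant, did not pass the test and had hairpin means on opposite sides of control. SNAI2 encodes Slug, a zinc finger repressor of epithelial genes. The authors' means of SNAI2 were 1.99 normalized counts in shNPTX1_3 and 4.05 in shNPTX1_4, against 12.98 in shCTRL, by the authors' deposited table. The authors' deposited table gave it a log2 fold change of -1.95 with an SE of 0.51 (DESeq2 adjusted p = 0.00141), or 0.259-fold, with a 95% interval of -2.96 to -0.94.

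The low means of SNAI2 could be split into the whole reads of each library. Where every library holds whole reads, a group mean is a sum of fixed steps, 1 for a single read of each library. This did not hold for every low gene: 54.2% of 2174 low rows gave 1 solution in each group, and ESRP1 gave 0 solutions. The split gave 1 solution in each group, within 9e-09 normalized counts or less. From the shallowest to the deepest library, SNAI2 had 1, 1 and 3 reads in shNPTX1_3, 5, 2, 6 and 3 reads in shNPTX1_4, and 13, 10, 20 and 23 reads in shCTRL. As normalized counts these were 1.85, 1.62 and 2.504 in shNPTX1_3, 5.81, 2.27, 5.89 and 2.22 in shNPTX1_4, and 18.7, 12.7, 10.1 and 10.5 in shCTRL. The highest knockdown library, at 5.89, lay below the lowest control library, at 10.1, so the groups did not overlap.

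SNAI2 averaged 3.17 ± 1.86 normalized counts over the knockdown libraries (SD, n = 7) and 12.98 ± 3.96 over the control libraries (SD, n = 4). The exact two-sided permutation test over libraries gave p = 0.00606, the smallest that 330 splits of 7 against 4 can give. It was 0.155 after Benjamini-Hochberg adjustment over 1178 low genes whose reads could be split in the same way. Every one of these genes whose groups did not overlap has this adjusted value, the lowest in the set. It therefore cannot tell SNAI2 from them. Of those 1178 genes, 2.97% had every knockdown library below every control library and 0.934% had every one above. For shNPTX1_4 alone against control, 4 libraries of each, the exact two-sided p was 0.0286, and for shNPTX1_3 alone, with 3 libraries, it was 0.0571, each the smallest the design can give. The means of 4.05 in shNPTX1_4 and 1.99 in shNPTX1_3 were not separated by the exact two-sided permutation test (p = 0.171), where the ranges of the libraries overlapped and the smallest possible p is 0.0571. These values rest on 1 to 23 reads per library, and without any 1 library the log2 ratio of the means stayed between -2.26 and -1.81.

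**Figure D3:**
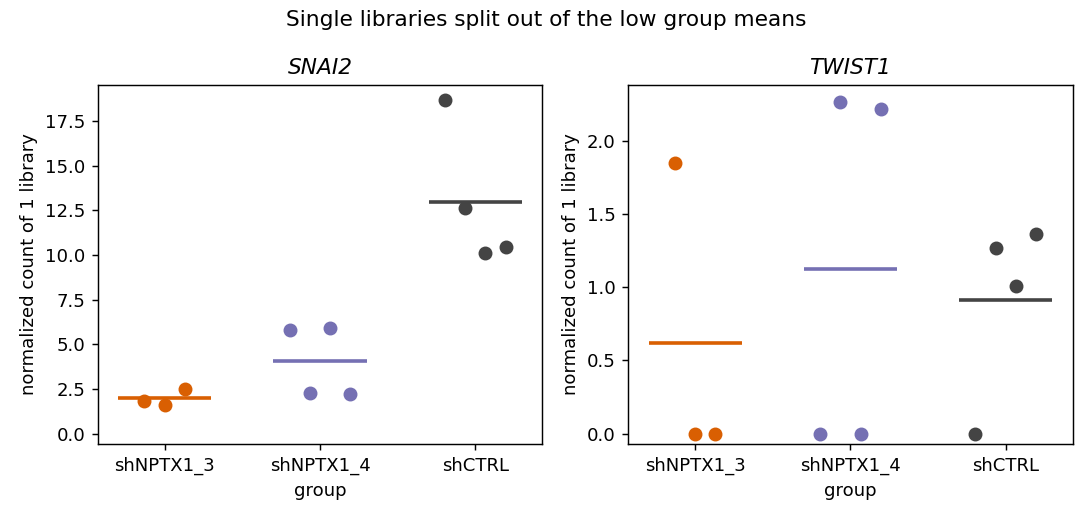
Normalized counts of single libraries (points) with the group mean (line) for SNAI2 and TWIST1, from whole reads split out of the group means, in shNPTX1_3, shNPTX1_4 and shCTRL. The 7 knockdown libraries of SNAI2 lie between 1.62 and 5.89, below the control libraries at 10.1 to 18.7, while those of TWIST1 overlap.

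SNAI1, which encodes Snail, had authors' means of 447 normalized counts in shNPTX1_3 and 274 in shNPTX1_4, against 345 in shCTRL, by the authors' deposited table. The log2 ratio to control was 0.37 with shNPTX1_3 and -0.33 with shNPTX1_4, and these ratios share the control libraries. Its log2 fold change over both hairpins by the authors' deposited table was 0.02 with an SE of 0.24 (DESeq2 adjusted p = 0.968), which turned to -0.049 with equal group totals. The log2 ratio of shNPTX1_4 over shNPTX1_3 was -0.70, and 5.94% of 14131 genes at 2 CPM or more had a larger difference between the hairpins in either direction. That difference was not tested, since its reads could not be split by library. The SE of SNAI1 was larger than that of 93.0% of genes at 2 CPM or more.

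The TWIST genes, which encode bHLH factors of mesoderm development and EMT, did not pass the test or were not tested. TWIST1 was barely detected. From the shallowest to the deepest library it had 1, 0 and 0 reads in shNPTX1_3, 0, 2, 0 and 3 reads in shNPTX1_4, and 0, 1, 2 and 3 reads in shCTRL. It averaged 0.905 ± 1.14 normalized counts over the knockdown libraries (SD, n = 7) and 0.910 ± 0.6249 over the control libraries (SD, n = 4), and the exact two-sided permutation p was 0.879. A library at 0 reads allows up to 3 reads, which is 4.85 normalized counts in the second shNPTX1_3 library and 4.31 in the shallowest shCTRL library, so a change of TWIST1 was not detectable at this depth, and limits of this kind cover counting error only. TWIST2 had authors' means of 28.3 normalized counts in shNPTX1_3 and 14.6 in shNPTX1_4, against 24.2 in shCTRL, by the authors' deposited table. The authors' deposited table gave it a log2 fold change of -0.26 with an SE of 0.31 (DESeq2 adjusted p = 0.552). As with SNAI1, the hairpins lay on opposite sides of control, with log2 ratios of 0.22 for shNPTX1_3 and -0.69 for shNPTX1_4 at a pseudocount of 1, and the difference was not tested.

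PRRX1 rose about 2-fold in the test of both hairpins together. This homeodomain factor is known for roles in limb and craniofacial mesenchyme and for promoting EMT in tumours. Its authors' means were 35.2 normalized counts in shNPTX1_3 and 36.7 in shNPTX1_4, against 17.4 in shCTRL, by the authors' deposited table. The authors' deposited table gave it a log2 fold change of 1.04 with an SE of 0.26 (DESeq2 adjusted p = 0.000578), or 2.06-fold, and 0.98 with equal group totals (adjusted p = 0.00140). The hairpin means lay within 2 normalized counts of each other and both lay above the control mean, and the level stayed under 2 CPM in every group. The authors' means of PRRX2, the paralog of PRRX1, were 65.8 normalized counts in shNPTX1_3 and 63.1 in shNPTX1_4, against 81.1 in shCTRL. PRRX2 did not pass the test (log2 fold change -0.34, DESeq2 adjusted p = 0.101). Fibroblasts also express PRRX1. Of 12 tested fibroblast or hepatic stellate cell markers, 3 rose and 1 fell by DESeq2 (the authors' deposited table). That is 33.3% in all, against 27.3% of all tested named genes. Of the 15 listed markers, 9 lie under 2 CPM, where 10.3% of tested genes were called. Their median log2 fold change was 0.35, against -0.01 for all tested named genes. The 15 markers summed to 7489 normalized counts in shNPTX1_3 and 3957 in shNPTX1_4, against 3081 in shCTRL, by the authors' deposited table, of which COL3A1 gave 5517, 2247 and 731, and none was at 0 in every group. Without COL3A1, the other 14 summed to 1972 and 1710 normalized counts in shNPTX1_3 and shNPTX1_4, against 2350 in shCTRL. Within that list PDGFRA averaged 7.19 and 7.06 normalized counts in shNPTX1_3 and shNPTX1_4, against 1.18 in shCTRL, and PDGFRB averaged 6.32 and 6.44 against 7.58, by the authors' deposited table. THY1 fell by 1.06 on the log2 scale with a DESeq2 adjusted p of 0.0105, and COL1A2, which did not pass (DESeq2 adjusted p = 0.0559), averaged 17.8 and 17.5 normalized counts against 74.3, per the authors' deposited table. The part of these markers in the PRRX1 result was not tested.

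The splicing regulators ESRP1 and ESRP2 did not pass the test. ESRP2 had authors' means of 183 normalized counts in shNPTX1_3 and 210 in shNPTX1_4, against 224 in shCTRL, by the authors' deposited table. The authors' deposited table gave it a log2 fold change of -0.16 with an SE of 0.12 (DESeq2 adjusted p = 0.334), and its 95% interval of -0.41 to 0.08 leaves out a 2-fold change. ESRP2 overlaps NFATC3 on the other strand, where the authors' deposited table gave a log2 fold change of -0.31 (DESeq2 adjusted p = 0.0575). ESRP1 was near the lower end of the table and averaged 4.15 normalized counts in shNPTX1_3 and 2.73 in shNPTX1_4, against 5.11 in shCTRL, by the authors' deposited table. The authors' deposited table gave it a log2 fold change of -0.62 with an SE of 0.68 (DESeq2 adjusted p = 0.532), and the 95% interval of -1.96 to 0.72 is too wide to show a change of 2-fold.

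VIM, which encodes the intermediate filament protein vimentin, was among the most abundant transcripts in each group and did not pass the test. Its authors' means were 68672 normalized counts in shNPTX1_3 and 68305 in shNPTX1_4, against 60617 in shCTRL, by the authors' deposited table. These were 0.343%, 0.353% and 0.324% of the group totals, and VIM ranked 7th, 8th and 7th among the named rows, in the same order of groups. The log2 fold change of VIM by the authors' deposited table was 0.18 with an SE of 0.10 (DESeq2 adjusted p = 0.184), and 0.11 with equal group totals (adjusted p = 0.432). The log2 ratio of shNPTX1_4 over shNPTX1_3 was -0.01, and 97.7% of genes at 2 CPM or more had a larger difference between the hairpins. VIM-AS1 overlaps VIM on the other strand and was not analysed here.

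Between the hairpins, the 5 genes at 2 CPM or more ordered as VIM, ZEB1, ESRP2, ZEB2 and SNAI1, from the closest to the widest apart. The absolute log2 difference was 0.05 for ZEB1, 0.20 for ESRP2 and 0.43 for ZEB2, against a median of 0.18 over all genes at 2 CPM or more. None of these 5 reached a 2-fold distance from control with either hairpin, where 4.47% of genes did so with shNPTX1_3 and 2.71% with shNPTX1_4. Of the 10 genes, 6 had both hairpin means on the same side of control. The genes whose pair of log2 ratios lay nearest to that of ZEB1 were MVB12A, METTL21A and DNAJB9, at distances of 0.0027, 0.0029 and 0.0065 over 3 group means, and 637 of 14130 genes lay within 0.1.

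The counts of the gene lists that follow stand beside 15.8% of all tested named genes called higher and 11.5% called lower, or 27.3% in all, and 32.5% in all at 2 CPM or more. Of 19 tested other EMT transcription factors, 6 rose and 5 fell by DESeq2 (the authors' deposited table), or 57.9% in all, with a median log2 fold change of -0.13. With equal group totals 6 rose and 7 fell. FOXQ1, a forkhead factor that promotes EMT, had authors' means of 95.2 normalized counts in shNPTX1_3 and 105 in shNPTX1_4, against 42.003 in shCTRL, and a log2 fold change of 1.28 by the authors' deposited table (SE 0.17). The SRY-related factor gene SOX4 rose by 0.49 and the zinc finger gene ZNF281 by 0.45 (log2, the authors' deposited table), while the T-box repressor gene TBX3 fell by 0.61. Of 14 tested epithelial transcription factors, 7 rose and 0 fell by DESeq2 (the authors' deposited table), with a median log2 fold change of 0.25, and 7 did not pass. The share that rose was 50%, against 15.8% of all tested named genes. ELF3, an epithelial ETS factor, averaged 457 and 323 normalized counts in shNPTX1_3 and shNPTX1_4, against 98.1 in shCTRL, by the authors' deposited table. TP63 had 309 and 68.0 against 50.3, FOXA2 had 333 and 567 against 200, and KLF4 had 746 and 604 against 349, in the same order of groups by the authors' deposited table.

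Genes downstream of the ZEB and SNAI repressors were called in both directions. Of 29 tested epithelial genes known to be repressed by these factors, 10 rose and 3 fell by DESeq2 (the authors' deposited table), or 44.8% in all against 27.3% of all tested named genes, with a median log2 fold change of 0.12. KRT19 and KRT8, keratins of simple epithelia, rose by 2.30 and 1.35 (log2, the authors' deposited table), and CLDN1, a tight junction claudin, rose by 1.497 with an SE of 0.57. The authors' deposited table gave CLDN1 means of 739.9 normalized counts in shNPTX1_3 and 177 in shNPTX1_4, against 148 in shCTRL, so shNPTX1_4 lay near control. DSP, which encodes desmoplakin of the desmosome, fell by 1.40, by the authors' deposited table. CDH1, the best known target, had authors' means of 620 normalized counts in shNPTX1_3 and 210 in shNPTX1_4, against 247 in shCTRL, and missed the threshold by the authors' deposited table (log2 fold change 0.64, DESeq2 adjusted p = 0.275). Of 28 mesenchymal genes, 10 rose and 4 fell by DESeq2 (the authors' deposited table), with a median log2 fold change of 0.43. That is 50% in all, against 32.5% of all named genes at 2 CPM or more, where 27 of the 28 lie. COL3A1, a fibrillar collagen, FN1, fibronectin, and S100A4, a calcium-binding protein of motile cells, rose by 2.32, 1.88 and 1.84 (log2, the authors' deposited table), and the proteoglycan gene VCAN fell by 2.34. For the mesenchymal genes the median log2 ratio was 0.67 with shNPTX1_3 and -0.20 with shNPTX1_4, and this difference was not tested. COL3A1 is also one of the fibroblast markers, and their part in the mesenchymal counts was not tested.

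**Figure D4:**
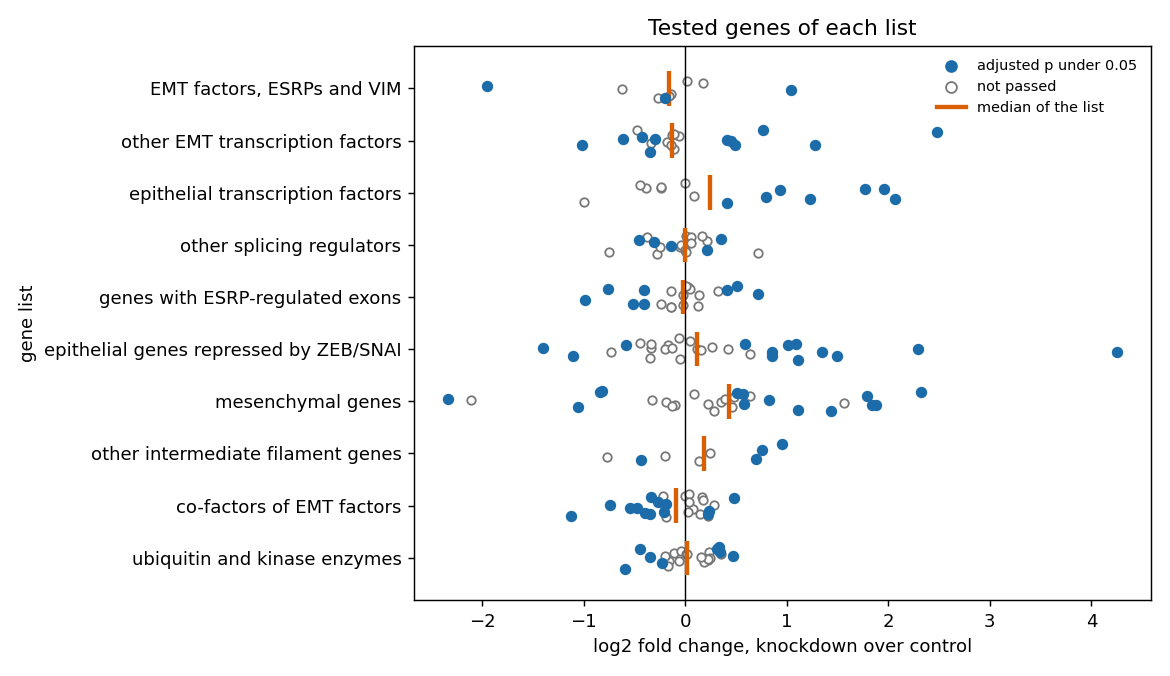
DESeq2 log2 fold change from the authors' deposited table (horizontal axis) of each tested gene in 10 lists (rows), filled where the adjusted p is under 0.05, with the median of the list as a bar. The called epithelial transcription factors all lie right of 0, while the called genes of the other lists that hold any lie on both sides.

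Of 19 tested splicing regulators with known roles in epithelial or mesenchymal splicing, 2 rose and 3 fell by DESeq2 (the authors' deposited table), or 26.3% in all, near the 27.3% of all tested named genes. HNRNPM, which promotes mesenchymal splice forms of CD44, fell by 0.45 and RBM24 by 0.30, while the muscleblind gene MBNL1 rose by 0.35 (log2, the authors' deposited table). SRSF1 rose by 0.22 (the authors' deposited table), a call that was lost with equal group totals (adjusted p = 0.171). Of 20 genes with exons known to be regulated by the ESRPs, 3 rose and 5 fell in total level by DESeq2 (the authors' deposited table), or 40% in all against 32.5% of all named genes at 2 CPM or more. Among them were ITGA6, the integrin alpha 6 gene, which rose by 0.72, and RALGPS2, MAGI1 and PALM, which fell by 0.99, 0.75 and 0.52 (log2, the authors' deposited table). The table holds 1 value a gene, so splice forms were not measured. The best known ESRP targets did not pass the test: FGFR2 had a DESeq2 adjusted p of 0.708, CD44 of 0.142 and CTNND1 of 0.875 by the authors' deposited table.

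The list of other intermediate filament genes left out the keratins. Of its 8 tested genes, 3 rose and 1 fell by DESeq2 (the authors' deposited table). That is 50% in all, against 27.3% of all tested named genes. NES, which encodes nestin, a partner of vimentin, rose by 0.76 (log2, the authors' deposited table), SYNC by 0.95 and BFSP1 by 0.70, while SYNM, which encodes synemin, fell by 0.43. Of 26 tested co-factors of the EMT transcription factors, all at 2 CPM or more, 3 rose and 10 fell by DESeq2 (the authors' deposited table). Of all tested named genes at 2 CPM or more, 19.4% were called higher and 13.1% lower. With equal group totals 2 co-factors rose and 11 fell, against 14.0% and 18.9% of all tested named genes at 2 CPM or more. ID4 and ID2, inhibitors of bHLH factors, fell by 1.13 and 0.74 (log2, the authors' deposited table), and the acetyltransferase genes EP300 and KAT2B moved apart, EP300 falling by 0.54 and KAT2B rising by 0.48. Of 23 tested genes for enzymes that modify the EMT factors by ubiquitin or phosphate, 4 rose and 4 fell by DESeq2 (the authors' deposited table). That is 34.8% in all, near the 32.5% of all named genes at 2 CPM or more, where all 23 lie. With equal group totals 3 rose and 6 fell. Among them PRKD1, a kinase of SNAI1, fell by 0.60, GSK3A by 0.45 and the ubiquitin ligase gene RNF111 by 0.35, while the deubiquitinase gene USP27X rose by 0.47 (the authors' deposited table). Of 7 tested antisense or nearby genes of the members and of the related gene SNAI3, 0 passed by DESeq2 (the authors' deposited table), where 2 had an unadjusted p under 0.05.

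Markers of host cell types were also read, and their counts stand beside the 27.3% of all tested named genes that were called. Most of these markers lie under 2 CPM, where 10.3% of tested genes were called. Of 6 tested leukocyte and Kupffer cell markers, 0 passed by DESeq2 (the authors' deposited table) and 0 had an unadjusted p under 0.05. The 12 leukocyte markers summed to 930 and 768 normalized counts in shNPTX1_3 and shNPTX1_4, against 868 in shCTRL, by the authors' deposited table, and C1QA, MARCO and VSIG4 were listed at 0 in every group. Of 8 tested endothelial markers, 0 passed by DESeq2 (the authors' deposited table), where 1 had an unadjusted p under 0.05. The 10 endothelial markers summed to 506 and 462 normalized counts in shNPTX1_3 and shNPTX1_4, against 461 in shCTRL, by the authors' deposited table. Of 8 tested hepatocyte markers, 2 rose and 0 fell by DESeq2, and the 12 summed to 509.9 and 261 normalized counts in shNPTX1_3 and shNPTX1_4, against 342 in shCTRL, by the authors' deposited table. The genome builds listed include human and mouse, and the handling of mouse reads is not stated in the sources used, so host RNA in these values cannot be told apart from tumour RNA.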

How the data were processed

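Total RNA of liver tumours was made into libraries with the TruSeq RNA kit, per the labels' protocols. Tools named, without roles, by the submitters' processing notes are DESeq2 1.24, featureCounts 2.0.0, STAR 2.7.6a and MultiQC 1.9, and the builds are hg19 and mm39. Per the file headers, the authors deposited the mean normalized count of each group (a signal that is never negative), the log2 fold change and its error, the statistic of the test (a score), a p-value and an adjusted p, with both hairpins as 1 group.

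Of 23434 rows, 107 were left out (79 without a name, 26 named by a date and 2 with a repeated name). Log2 ratios of each hairpin to control were taken after adding a pseudocount of 1, so changes of low genes are understated. The group means are not counts of single libraries, so no count model could be fitted here, and removal of a library (for most genes) and a replicate block were not run.

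Where a group mean was low, it was split into whole reads of single libraries, using the value of 1 read in each library (estimated from the most frequent low values and refined by least squares). For the genes described here and NPTX1, a split was used only where under 0.01 solutions were expected by chance. That limit was not set for the low rows counted next. Of 2174 named rows averaging at least 3 normalized counts and with no group above 20, 54.2% gave 1 solution in each group, within 9e-09 normalized counts, while values moved at random gave a solution in at most 0.506%. For the 1178 genes that had split in each group, whole reads were also drawn by computer. Of the group means made from them, 99.9% gave back the drawn reads. Such draws hold whole reads by design, so the split of the other low rows was not tested. The libraries were known by group and depth, not by replicate number. This alternative was added after the data were seen. Depth was estimated from the value of 1 read and the group total.

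All 10 genes were described, and in the other lists up to 4 called genes at 2 CPM or more with the largest absolute log2 fold change. Other genes named, such as CDH1, FGFR2, CD44 and CTNND1 and the cell markers, were named for background with their values known. The genes and lists were chosen with earlier results of these data known. Promoter windows are RefSeq's on GRCh38.p14, and transcript lengths and overlaps are GENCODE's, of another build than the authors'. Of the 10 genes, 5 had a promoter window used here. Tools were Python 3.11.15, pandas 2.3.3, numpy 2.4.6, scipy 1.17.1 and matplotlib 3.10.9.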

Additional observations from a re-analysis of the deposited data

How the results depend on the processing

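Of the 3 calls among the members, 2 passed at an adjusted p under 0.01, 2 with Benjamini-Hochberg adjustment over every named row with a p, and 3 with equal group totals, a setting that shifts all log2 fold changes down by 0.07. Restricted to rows at 2 CPM or more, 1 was called, since SNAI2 and PRRX1 lie under that level and were not tested. ZEB1 lost its call with adjustment over every named row (adjusted p = 0.0501). With equal totals the log2 fold change of SNAI1 was -0.049, splicing regulators that rose numbered 1 and antisense or nearby genes that fell numbered 2, in place of 2 and 0. For all tested named genes, calls numbered 2132 higher and 3017 lower with equal totals, in place of 2913 and 2114. Without each library in turn, the log2 ratio lay between -2.26 and -1.81 for SNAI2 and, with both signs, between -0.43 and 0.25 for TWIST1, the lowest and highest values of 11. Of 90 log2 ratios of the hairpins under other pseudocounts or equal totals, 88 moved by less than the SE of the gene. At 1 CPM, genes 2-fold from control numbered 791 with shNPTX1_3 and 475 with shNPTX1_4, against 631 and 383 at 2 CPM. No paired analysis was possible because the group means carry no replicate numbers. ESRP1, TWIST1 and SNAI2 rest on few reads, which limits what can be detected.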

Other observations

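Among 503 low genes with 1 transcript in GENCODE, 96.2% had group means that gave 1 solution in whole reads in each group, and among 1526 with 2 or more transcripts, 37.2% did. These are genes averaging at least 3 normalized counts with no group above 20, which include SNAI2, with 1 solution in each group, and ESRP1, with 0. In shNPTX1_3, the NPTX1 mean split into 16, 23 and 87 reads, or 29.6, 37.2 and 72.6 normalized counts from the shallowest to the deepest library.

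Precursor genes of the miR-200 family, whose mature products are known to repress ZEB1 and ZEB2, were looked up after the other values were seen. MIR200A, MIR200C, MIR141 and MIR429 were listed at 0 in every group of the authors' deposited table, and MIR200B averaged 0 normalized counts in shNPTX1_3, 0.291 in shNPTX1_4 and 0 in shCTRL there. Libraries of this kind do not measure mature miRNAs. MIR205HG, the host gene of miR-205, does not belong to the miR-200 family. It averaged 31.5 and 34.8 normalized counts in shNPTX1_3 and shNPTX1_4, against 38.3 in shCTRL, with a DESeq2 adjusted p of 0.525, by the authors' deposited table.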
